A study of Rattus norvegicus with 6 samples.

Results

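DNA replication and S phase genes encode the proteins that copy the genome in dividing cells, and 35 of them were followed in rat neuronal progenitor cells given a glucocorticoid. Members were taken by gene symbol, as every probe set (a group of short array probes read out as 1 signal) whose platform annotation names 1 of the 35 genes and no other. The symbols picked out 41 of the 31099 probe sets on the array and 31 of the 14217 genes that have a probe set of their own. Cdc6, Cdc7 and Gins2 had no probe set by this rule, and Rrm2 had only 2 probe sets that carry several symbols, so these 4 genes were not analysed here.

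The cells are neuronal progenitors, the dividing precursors of neurons and glia, from cerebral cortices of rat embryos at E15.5. They grew on a fibronectin-coated surface with 20 ng/ml bFGF, a growth factor that keeps progenitors dividing. One group received 1 µM corticosterone, the main glucocorticoid hormone of rodents, for 48 h, and the other received its solvent DMSO (vehicle) for 48 h. Each group holds 3 RNA samples on 1 Affymetrix array each, and the samples form 3 couples of 1 corticosterone and 1 vehicle sample. No genotype, strain or number of animals is given in the sources used here, and fibronectin and bFGF were common to both groups. The question put to these arrays is which messenger RNAs differ after the hormone.

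A replication origin is licensed in G1 phase when Cdc6 and Cdt1 load the ring-shaped Mcm2 to Mcm7 complex onto DNA. Kinases, among them Cdc7, and the factors Mcm10, Cdc45 and the GINS complex then turn the ring into the active helicase that unwinds the duplex. Polymerases, the sliding clamp Pcna and its loader (the Rfc subunits) copy both strands, Fen1 and Lig1 join the lagging strand, and ribonucleotide reductase, Tyms, Tk1 and Dut feed and guard the nucleotide pool. Many of these genes are transcribed in late G1 phase under E2F factors, which cyclin E with its kinase helps to release. Progenitors of the embryonic cortex divide often, so these transcripts are a usual sign of cycling in such cells.

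The labelled cell type was checked against markers. All 8 progenitor markers (Nes, Sox2, Vim, Fabp7, Pax6, Hes5, Slc1a3 and Notch1) and all 8 markers of cells in G2 phase and mitosis (Mki67, Top2a, Cdk1, Ccnb1, Bub1, Aurka, Plk1 and Birc5) lay above the filter on low signals. Their summed signals were 79264 to 87543 on corticosterone arrays and 66624 to 82256 on vehicle arrays for progenitor markers, and 28479 to 32843 and 30033 to 31272 for the G2 and mitosis markers. Markers of several lists moved with the treatment in the limma test described further on. Of the progenitor markers Slc1a3 and Nes rose, by 0.49 and 0.26 on the log2 scale, and 6 did not pass. Of 3 astrocyte markers above the filter S100b and Gja1 rose, by 1.80 and 0.96, Gfap did not pass (0.58), and Aqp4 and Aldh1l1 lay below it. Of 7 neuronal markers Tubb3 fell by 0.52 and 6 did not pass, with 6 values below 0 and Snap25 above 0 (0.20). Of 4 tested markers of the oligodendrocyte lineage Pdgfra fell by 1.64 and 3 did not pass. Summed signals on corticosterone and vehicle arrays were 8701 to 12413 and 11543 to 12483 for neuronal markers. For the oligodendrocyte lineage they were 16681 to 23040 and 19956 to 24470. Of 6 microglial markers Itgam, Csf1r, Ptprc and Cx3cr1 lay below the filter and Cd68 and Aif1, just above it, did not pass, while the summed signal was 259 to 277 with corticosterone and 201 to 218 with vehicle. The 4 endothelial markers with a probe set (Pecam1, Kdr, Cldn5 and Tek) lay below the filter. Of 9 meningeal, pericyte and fibroblast markers Acta2 and Col1a2 rose, by 1.03 and 0.99, 3 did not pass, and Dcn, Lum, Pdgfrb and Rgs5 lay below the filter on average. Col1a2 was bright in couple 2 only, with signals of 87.0, 691 and 57.4 in couples 1, 2 and 3 with corticosterone. With vehicle they were 6.42, 401 and 32.1. Its second probe set gave 0.38 and did not pass (limma adjusted p = 0.25). Lum had signals of 143 and 136 on the corticosterone and vehicle arrays of couple 2 and at most 2.66 on the others. For the meningeal list the summed signal by couple was 1015, 2945 and 1074 with corticosterone against 727, 1819 and 965 with vehicle. The median signal over all probe sets was 124 to 134 on corticosterone arrays and 108 to 122 on vehicle arrays. For RNA integrity, the 3′ over 5′ signal of the beta-actin control probe sets was 1.76, 2.0 and 2.03 in the corticosterone samples of couples 1, 2 and 3 and 1.55, 2.11 and 2.12 in their vehicle samples.

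Upstream sequence is shown for 6 members because replication genes are known as E2F targets: 4 Mcm genes that hold E2F-type letters and the 2 members that passed the test. A window from 250 bases before to 50 after the start of each gene, from RefSeq on build GRCr8, was found for 29 of the 35 members. It was searched on both strands for TTTCCCGC, TTTCGCGC, TTTGCCGC and TTTGGCGC, forms of the E2F site, whose matches can overlap each other. At least 1 match was present in 13 of the 29 members (44.8%), against 2.37% of the 27457 genes with such a window. Among Mcm2 to Mcm7, 5 genes had a window and all 5 held a match. The 250 bases before the start are printed 5′ to 3′ on the strand of the gene, with matches in capitals. They lie at chr4:122918095-122918344 (minus strand) for Mcm2, chr19:13488563-13488812 (plus) for Mcm5, chr13:42404353-42404602 (minus) for Mcm6, chr12:22163179-22163428 (minus) for Mcm7, chr11:95689928-95690177 (plus) for Cdc45 and chr11:91254023-91254272 (plus) for Rfc4.
Mcm2: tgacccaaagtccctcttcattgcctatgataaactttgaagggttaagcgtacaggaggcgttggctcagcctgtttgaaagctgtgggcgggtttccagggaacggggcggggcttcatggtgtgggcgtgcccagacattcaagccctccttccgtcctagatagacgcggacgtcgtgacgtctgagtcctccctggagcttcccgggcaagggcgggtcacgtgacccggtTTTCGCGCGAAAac
Mcm5: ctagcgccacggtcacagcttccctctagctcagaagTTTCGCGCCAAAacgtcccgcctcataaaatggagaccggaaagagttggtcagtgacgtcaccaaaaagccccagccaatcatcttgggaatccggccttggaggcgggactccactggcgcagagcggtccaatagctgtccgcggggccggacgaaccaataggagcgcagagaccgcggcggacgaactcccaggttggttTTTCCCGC
Mcm6: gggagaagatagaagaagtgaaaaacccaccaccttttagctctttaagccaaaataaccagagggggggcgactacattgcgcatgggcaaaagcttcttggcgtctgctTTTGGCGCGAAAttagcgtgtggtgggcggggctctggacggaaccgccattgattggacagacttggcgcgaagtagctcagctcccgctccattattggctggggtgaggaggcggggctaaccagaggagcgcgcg
Mcm7: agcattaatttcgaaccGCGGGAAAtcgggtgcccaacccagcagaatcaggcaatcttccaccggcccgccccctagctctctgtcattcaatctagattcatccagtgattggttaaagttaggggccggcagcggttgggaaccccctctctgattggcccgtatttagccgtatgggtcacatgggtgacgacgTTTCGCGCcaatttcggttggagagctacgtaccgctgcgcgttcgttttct
Cdc45: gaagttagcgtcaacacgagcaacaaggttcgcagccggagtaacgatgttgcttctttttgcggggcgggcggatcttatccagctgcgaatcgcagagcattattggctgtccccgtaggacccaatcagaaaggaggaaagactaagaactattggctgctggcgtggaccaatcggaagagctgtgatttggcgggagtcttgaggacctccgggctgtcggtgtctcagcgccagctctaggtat
Rfc4: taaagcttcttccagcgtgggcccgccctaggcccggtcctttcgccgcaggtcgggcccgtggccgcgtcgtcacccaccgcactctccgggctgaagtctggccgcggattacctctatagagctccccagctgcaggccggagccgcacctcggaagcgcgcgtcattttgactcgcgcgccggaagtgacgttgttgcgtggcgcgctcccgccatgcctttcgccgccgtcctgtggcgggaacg
In Mcm2, Mcm5 and Mcm6 a pair of matches on opposite strands overlapped in 1 run of 12 letters. Cdc45 and Rfc4, the members that passed the test described next, had no match in the window, which says only that these letters are not there. The letters CCAAT, the core of another element common in promoters of cell cycle genes, were present on either strand in 15 of the 29 members (51.7%) and in 39.6% of all genes with a window.

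With corticosterone 2 of the 31 measured replication genes fell, Cdc45 and Rfc4, none rose, and 29 did not pass. Signals were set on the scale log2(signal + 28.6), and each probe set was fitted with limma with treatment and couple as terms. A gene is called here at a Benjamini-Hochberg adjusted p under 0.05 over the 18625 probe sets tested, and the probe set with the highest mean stands for its gene. The 2 calls are 6.45% of the 31 members, against 7.77% of all 9910 genes tested that were lower and 11.7% that were higher, so the share called is close to the background. At an unadjusted p under 0.05, 13 members (41.9%) were lower and 1 was higher, against 16.6% and 18.8% of all genes. The median log2 fold change was −0.14 over the members and −0.002 over all genes, and 27 of the 31 members had a value below 0. No member moved far: the log2 fold changes ran from −0.29 (Mcm6) to 0.24 (Chaf1b). The 95% intervals of the members' log2 fold changes extended 0.13 to 0.27 to either side, so differences of this size are at the limit of what 3 couples resolve. In RNA from whole cultures, fewer cells in S phase and less of a transcript per cell cannot be told apart. Whether each couple is a culture or litter of its own is not stated, so p-values measure only the spread between these samples.

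**Figure D1:**
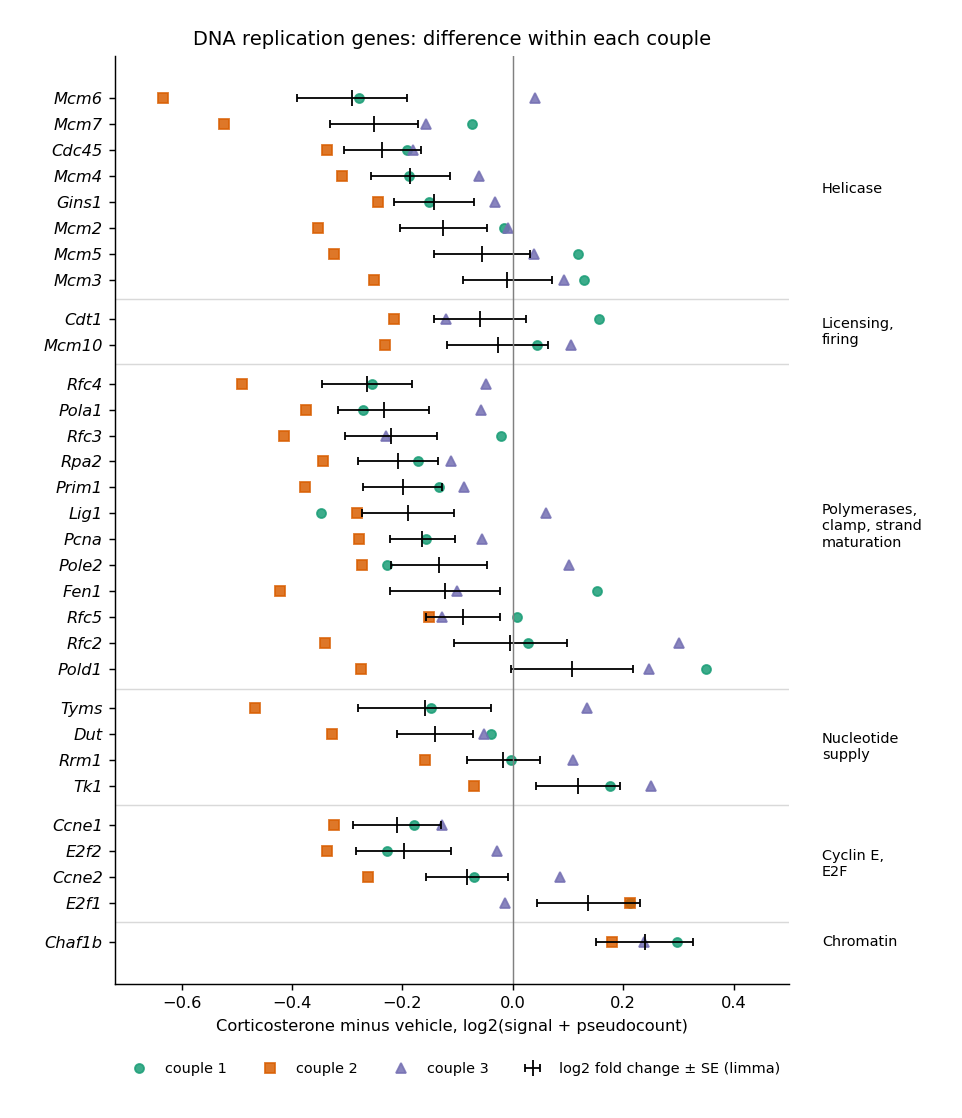
Difference of corticosterone minus vehicle on the log2(signal + pseudocount) scale for the 31 measured replication genes, ordered by role and by log2 fold change. Coloured symbols are couples 1, 2 and 3, and the black mark is the limma log2 fold change with its SE. The symbols of couple 2 lie left of 0 for 29 genes, and Chaf1b is the 1 gene with all 3 symbols right of 0; for E2f1 the symbols of couples 1 and 2 lie on each other.

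Of the 8 measured helicase genes 1 passed as lower, against 7.77% of all genes. All 8 had a log2 fold change below 0, with a median of −0.16, and without couple 2 the median was −0.10 and Mcm3 and Mcm5 lay above 0. Cdc45, which joins the Mcm ring and GINS in the active helicase, had signals of 1885, 1711 and 2011 with corticosterone, in the order of couples 1, 2 and 3 used throughout, and 2157, 2168 and 2284 with vehicle. All 3 corticosterone values lay below all 3 vehicle values, and Cdc45 fell by 15.1% (log2 fold change −0.24 ± 0.07, SE; limma adjusted p = 0.041). That probe set has the suffix that Affymetrix gives to sets whose probes may also match other transcripts. The other tested probe sets of Cdc45 had log2 fold changes of −0.23 (adjusted p = 0.093) and −0.18 (adjusted p = 0.31), and 1 more lay below the filter on low signals. The call was lost in limma without couple 1, 2 or 3 (adjusted p = 0.093, 0.26 and 0.068) and without the couple as a term (0.26). It was also lost with quantile normalization, with no filter, without the intensity trend and with the mean of the gene's probe sets.

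Mcm7, a subunit of the ring, had signals of 8264, 5687 and 7380 with corticosterone and 8706, 8187 and 8234 with vehicle. The value of couple 2 with corticosterone stood far below the other 5, which spanned 7380 to 8706, and the groups overlapped (log2 fold change −0.25 ± 0.08, SE; limma adjusted p = 0.056). Mcm6, another ring subunit, had signals of 4373, 4006 and 6348 with corticosterone and 5314, 6234 and 6174 with vehicle. It was lower in couples 1 and 2 and about level in couple 3, with the lowest log2 fold change of the members (−0.29 ± 0.10, SE; adjusted p = 0.074). Mcm4 had signals of 2372, 2008 and 2349 with corticosterone and 2706, 2495 and 2451 with vehicle. These groups did not overlap, with a log2 fold change of −0.19 ± 0.07 (SE; adjusted p = 0.104).

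The remaining helicase genes did not pass. Mcm2, Mcm3 and Mcm5 had log2 fold changes of −0.13, −0.01 and −0.06 (adjusted p = 0.32, 0.95 and 0.72), and the GINS subunit gene Gins1 had −0.14 (adjusted p = 0.21). For Mcm3 the 95% interval ran from −0.19 to 0.17 on the log2 scale. In couple 2 these 4 genes had differences of −0.24 to −0.35, whereas in couples 1 and 3 they lay between −0.15 and 0.13. Mcm3 and Mcm5 turned to 0.11 and 0.08 without couple 2.

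The measured licensing and firing genes were Cdt1 and Mcm10, and neither passed. Cdt1, which loads the Mcm ring at origins, had signals of 1923, 1488 and 1762 with corticosterone and 1723, 1732 and 1918 with vehicle. The groups overlapped fully and the couples did not share a direction (log2 fold change −0.06 ± 0.08, SE; limma adjusted p = 0.68). Mcm10, which acts when the helicase is switched on, had a log2 fold change of −0.03 with an interval from −0.23 to 0.17 (adjusted p = 0.88). Its 2 probe sets gave −0.03 and −0.04. The median of these 2 genes was −0.04, and it was −0.12 without couple 1 and 0.05 without couple 2. No test of a difference between roles was made, and Cdc6 and Cdc7 were not analysed here.

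Genes of the polymerases, the clamp, its loader and strand maturation had the lowest median of the role groups with several genes (−0.18). Of 12 genes 11 had a value below 0, against 4989 of all 9910 genes. At an unadjusted p under 0.05, 7 (58.3%) were lower, against 16.6% of all genes. The 1 gene that passed as lower (8.33%) is close to the 7.77% of all genes. Rfc4, a subunit of the clamp loader, had signals of 3678, 2479 and 3322 with corticosterone and 4393, 3494 and 3436 with vehicle. It was lower in each couple although the groups overlapped, and it fell by 16.7% (log2 fold change −0.26 ± 0.08, SE; limma adjusted p = 0.049). It did not pass without couple 1 (adjusted p = 0.10) or 2 (0.37), without the couple as a term (0.46), or with quantile normalization (0.077). Nor did it pass with no filter, without the intensity trend or with genes taken as the mean of their probe sets.

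None of the other clamp loader subunits passed, and their intervals overlap. Rfc3 had signals of 2187, 1354 and 1617 with corticosterone and 2219, 1814 and 1900 with vehicle, nearly level in couple 1 and lower in the others (log2 fold change −0.22 ± 0.08, SE; limma adjusted p = 0.098). Rfc5 and Rfc2 had log2 fold changes of −0.09 and −0.004, and Rfc2 differed by −0.34 in couple 2 and by 0.30 in couple 3. Pcna, the clamp itself, had signals of 12965, 12737 and 14632 with corticosterone and 14467, 15452 and 15208 with vehicle. It was lower in every couple by 0.06 to 0.28 on the log2 scale, with 1 corticosterone value inside the vehicle range (−0.16 ± 0.06, SE; adjusted p = 0.084).

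The catalytic subunits of the polymerase alpha and primase complex that starts new strands, Prim1 and Pola1, were lower in all 3 couples without passing. Its other subunit genes, Pola2 and Prim2, are not among the 35 and were lower in 2 couples and 1 couple, with log2 fold changes of −0.12 and −0.07 (limma adjusted p = 0.48 and 0.64). Prim1, the catalytic primase subunit, had signals of 4500, 2718 and 3013 with corticosterone and 4940, 3538 and 3206 with vehicle. Here couple 1 stood high in both groups, so the groups overlapped while each couple differed in 1 direction (log2 fold change −0.20 ± 0.07, SE; limma adjusted p = 0.084). Pola1, the catalytic subunit of polymerase alpha, had signals of 1282, 1201 and 1460 with corticosterone and 1552, 1565 and 1521 with vehicle. The vehicle values lay close together and above all corticosterone values (−0.23 ± 0.08, SE; adjusted p = 0.078).

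Rpa2, of the complex that coats single-stranded DNA, had signals of 2234, 1742 and 1951 with corticosterone and 2520, 2219 and 2110 with vehicle. It was lower in each couple (log2 fold change −0.21 ± 0.07, SE; limma adjusted p = 0.076). Lig1, the ligase that seals the lagging strand, had signals of 2031, 2128 and 2652 with corticosterone and 2591, 2595 and 2542 with vehicle, lower in couples 1 and 2 only (−0.19 ± 0.08, SE; adjusted p = 0.15). Its second probe set gave −0.25 (adjusted p = 0.065), and the mean of both passed (adjusted p = 0.046). The flap nuclease gene Fen1 (−0.12) and Pole2, a subunit of polymerase epsilon (−0.13), did not pass (adjusted p = 0.45 and 0.35). Pold1, the catalytic subunit of polymerase delta, had the 1 positive value of this group, 0.11 (adjusted p = 0.57), with differences of 0.35, −0.27 and 0.25 in couples 1, 2 and 3.

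**Figure D2:**
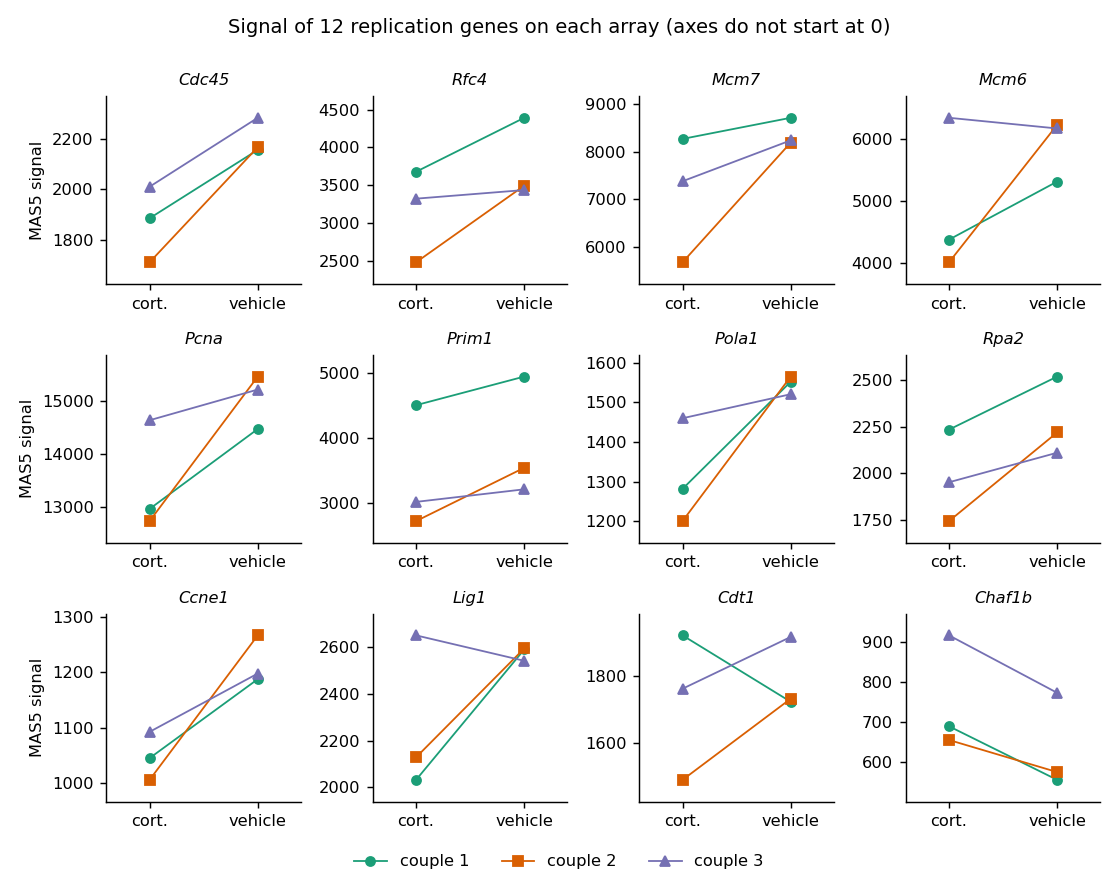
MAS5 signal of 12 replication genes on each array, corticosterone at the left and vehicle at the right of each panel, with a line joining the samples of a couple. Axes differ between panels and do not start at 0. Lines of couple 2 climb steeply to vehicle for 11 genes, for example Mcm7 with 5687 against 8187, while Chaf1b slopes the other way in all 3 couples.

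None of the 4 measured nucleotide supply genes passed, and their median was −0.08. It was −0.13 with the mean of each gene's probe sets and 0.02 without couple 2, so it has no stable sign. Dut, which keeps uracil out of DNA, had signals of 7047, 5366 and 6160 with corticosterone and 7248, 6746 and 6390 with vehicle. Couples 1 and 3 were almost level and couple 2 was lower (log2 fold change −0.14 ± 0.07, SE; limma adjusted p = 0.20). Rrm1, the large subunit of ribonucleotide reductase, had a log2 fold change of −0.02 with an interval from −0.16 to 0.13 (adjusted p = 0.89). The thymidylate synthase gene Tyms had −0.16 (adjusted p = 0.42).

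The 3 probe sets of Tk1, the thymidine kinase of dividing cells, disagreed. The one with the highest signal had 2799, 2531 and 2726 with corticosterone and 2475, 2659 and 2287 with vehicle (log2 fold change 0.12 ± 0.08, SE; limma adjusted p = 0.34). Its dimmest probe set had 304, 302 and 342 with corticosterone and 494, 419 and 457 with vehicle, without overlap (−0.49 ± 0.11, SE; adjusted p = 0.011), and the remaining one gave −0.05 (adjusted p = 0.73). That call was lost without couple 1 (adjusted p = 0.083) or 2 (0.066) and without the couple as a term (0.092). Tk1 is therefore given no direction here. With that probe set, 3 of the 40 member probe sets tested (7.5%) were lower, against 6.45% of all probe sets. Of the 7 members with several tested probe sets, Tk1 and Ccne2 were the ones whose probe sets differed in sign.

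Among the cyclin E and E2F genes none passed. Ccne1, a cyclin E gene that drives entry into S phase, had signals of 1045, 1006 and 1093 with corticosterone and 1188, 1266 and 1198 with vehicle. The groups did not overlap (log2 fold change −0.21 ± 0.08, SE; limma adjusted p = 0.0997). Ccne2, its paralog, had signals of 3608, 3227 and 3868 with corticosterone and 3790, 3878 and 3645 with vehicle, which overlapped (−0.08 ± 0.07, SE; adjusted p = 0.50). E2f2, a transcriptional activator, had signals of 764, 931 and 1183 with corticosterone and 900, 1184 and 1208 with vehicle, lower in each couple (−0.20 ± 0.09, SE; adjusted p = 0.15). E2f1, another activator of the family, had a log2 fold change of 0.14 with an interval from −0.07 to 0.34 (adjusted p = 0.37).

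Chaf1b, a subunit of the chromatin assembly factor that places histones behind the fork, was the 1 member higher in all 3 couples, a pattern met by 27.7% of all genes. Its signals were 690, 656 and 918 with corticosterone and 556, 575 and 774 with vehicle (log2 fold change 0.24 ± 0.09, SE; limma adjusted p = 0.092). Couple 3 was high in both groups, so the groups overlapped although each couple differed by 0.18 to 0.30. Under median centring of the arrays it was 0.13 (adjusted p = 0.34).

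The lower values lay mostly in couple 2. There the median difference of the 31 members was −0.32 on the log2 scale and 29 of them were lower, all but E2f1 and Chaf1b. In couple 1 the median was −0.07 with 20 lower, and in couple 3 it was −0.03 with 18 lower. Over all 9910 genes the median difference was 0.008, 0.003 and −0.007 in couples 1, 2 and 3, near 0 in each. The corticosterone array of couple 2 held the lowest of the 6 signals for 25 of 31 members (80.6%), against 20.7% of all genes. That array also had the highest median signal over all probe sets, 134 against 108 to 125 on the others. The part of this in the values of the replication genes was not tested.

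In couple 2 each role group with several genes had a median difference from −0.22 (licensing and firing) to −0.34 (polymerases and clamp). In couple 3 the medians ran from −0.06 for polymerases and clamp to 0.12 for nucleotide supply. The helicase genes had medians of −0.11, −0.33 and −0.02 in couples 1, 2 and 3. In 29 of the 31 members the log2 signals spread more among the corticosterone arrays than among the vehicle arrays, against 53.8% of all genes. The median SD over members was 0.19 with corticosterone and 0.11 with vehicle, and over all genes it was 0.16 and 0.15.

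A count over the couples put 14 members (45.2%) lower in all 3, against 27.2% of all genes. Groups that did not overlap were found for 4 members as lower, Cdc45, Mcm4, Pola1 and Ccne1 (12.9%), against 11.4% of all genes, and for 0 members as higher, against 14.8%. The count lower in all 3 couples stands above the background, and the count lower without overlap is close to it. The count higher without overlap lies below the background. Across the 31 members, which share arrays and are not independent, differences correlated by 0.58 between couples 1 and 2, 0.39 between 1 and 3 and 0.34 between 2 and 3 (Pearson). Over all genes these values were 0.75, 0.67 and 0.62.

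**Figure D3:**
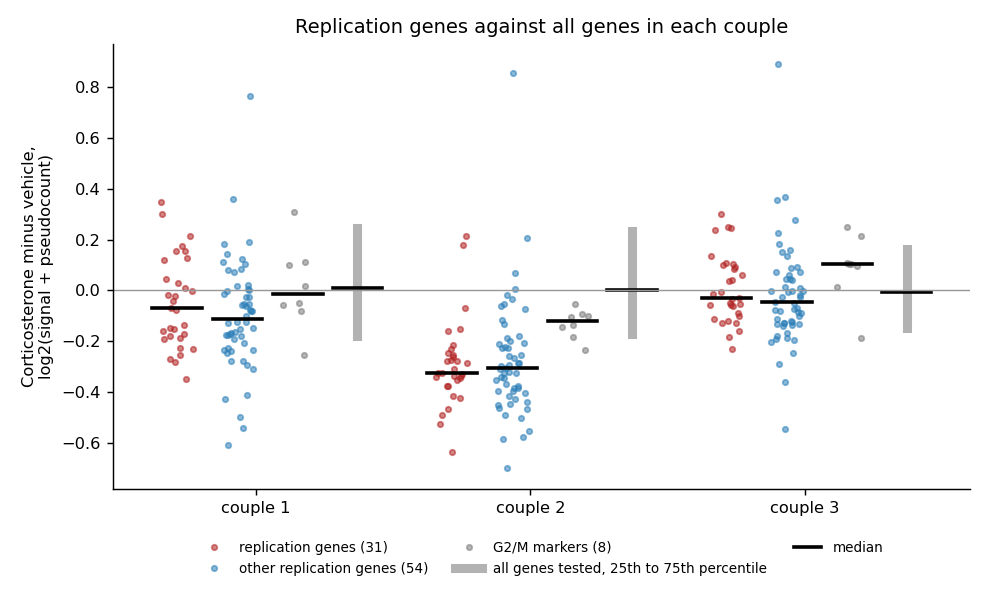
Difference of corticosterone minus vehicle on the log2(signal + pseudocount) scale within each couple, as points for the 31 replication genes, 54 other replication genes and 8 markers of G2 phase and mitosis, with black bars at the medians. The grey bar spans the 25th to the 75th percentile of all genes tested. The replication genes centre on −0.32 in couple 2, against −0.07 and −0.03 in couples 1 and 3.

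Without couple 2, 0 of the 31 members passed in limma, and at an unadjusted p under 0.05, 0 were lower and 3 (Chaf1b, Pold1 and Tk1) were higher. The median log2 fold change was then −0.06. Without couple 1, Mcm7 and Rfc3 passed as lower (6.45% of the members), and without couple 3, Lig1, Mcm6, Pola1 and Rfc4 did (12.9%). Of the 18625 probe sets tested over the whole array, 1202 were lower with all couples. Fewer were lower without couple 2 (392), without couple 1 (581) and without couple 3 (1103). No share of all genes was taken with a couple left out, so the member counts have no matching background there. Of the markers of G2 phase and mitosis, 8 of 8 were lower in couple 2 (median −0.12), 4 of 8 in couple 1 (−0.01) and 1 of 8 in couple 3 (0.10), and 0 of 8 passed over all couples. Both arrays of couple 2 also had the highest summed signal of meningeal, pericyte and fibroblast markers given above. The part of these markers, and of the progenitor, astrocyte, neuronal and oligodendrocyte markers that changed, in the values of the replication genes was not tested.

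The scaling of the arrays set how many members passed. With the deposited scaling 2 were lower, and 3 (9.68%: Cdc45, Mcm7 and Rfc4) with each array centred on the median of the probe sets tested. Over all probe sets 1506 were lower with that centring, against 1202 with the deposited scaling. With each array centred on the median of all probe sets, 15 were lower (48.4%), against 18.3% of all genes, and 0 were higher. All genes then had a median of −0.11 and the members one of −0.25. Centring shifts every gene of an array alike, so the members' median minus that of all genes is −0.14 under each of these scalings by construction. With quantile normalization 0 passed, 11 were lower at an unadjusted p under 0.05, and that difference of medians was −0.099. The 15 genes lower with median centring were Ccne1, Cdc45, Dut, E2f2, Gins1, Lig1, Mcm4, Mcm6, Mcm7, Pcna, Pola1, Prim1, Rfc3, Rfc4 and Rpa2.

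**Figure D4:**
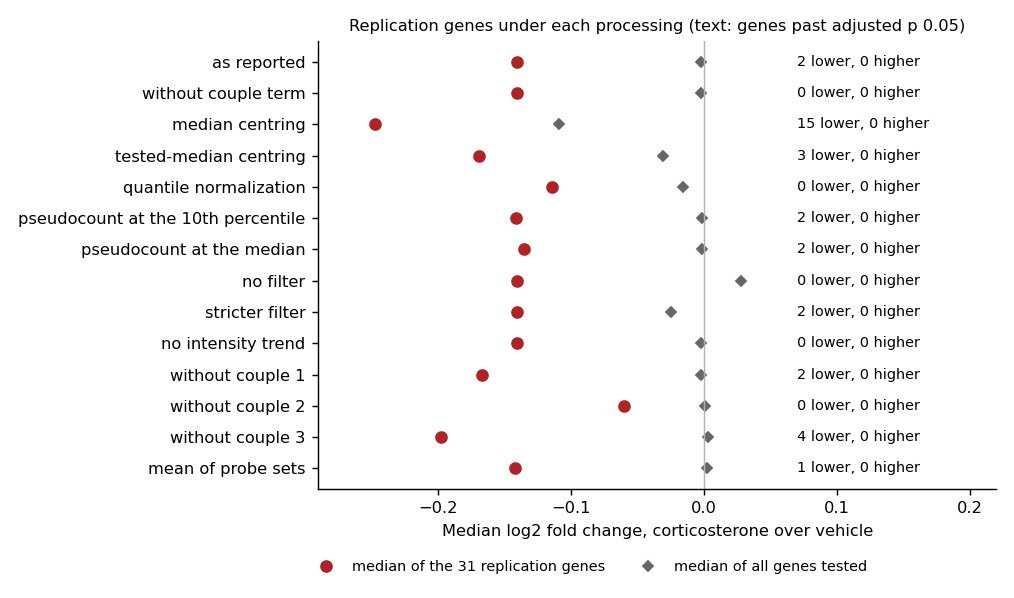
Median log2 fold change, corticosterone over vehicle, of the 31 replication genes and of all genes tested under each processing, with the number of replication genes past a limma adjusted p of 0.05 written at the right. The members' median lies below that of all genes in every line, from −0.25 with median centring to −0.06 without couple 2, while the number lower runs from 0 to 15.

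Genes of the pathway outside the 35 gave 9 calls. Of 61 further genes of the pathway 54 were measured, of which 8 were lower (14.8%, against 7.77% of all genes), 1 was higher (against 11.7%) and 45 did not pass, with a median log2 fold change of −0.13. Rpa3, the smallest subunit of the complex that coats single-stranded DNA and partner of Rpa2, had signals of 5796, 5340 and 7357 with corticosterone and 8432, 7277 and 9443 with vehicle. It was lower by 0.36 to 0.54 in each couple (log2 fold change −0.45 ± 0.06, SE; limma adjusted p = 5.51e-04), and it passed with any 1 couple left out (adjusted p from 8.15e-04 to 0.014) but not without the couple as a term (0.15). Rpa1, of the same complex, was lower in 1 couple and higher in 2, with a log2 fold change of −0.03 (limma adjusted p = 0.81). The origin recognition subunit genes Orc2 and Orc6 fell by 0.30 each on the log2 scale (adjusted p = 0.019 and 0.018). The other tested probe sets of Orc6 gave −0.38 (limma adjusted p = 0.018) and −0.14 (0.38). Orc2 had signals of 1112, 1100 and 1085 with corticosterone and 1352, 1404 and 1330 with vehicle, without overlap.

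The remaining calls among these genes touched several steps. Shmt1, which supplies one-carbon units for thymidylate, fell by 0.40 (limma adjusted p = 0.018), and Slbp, which binds histone messenger RNA, fell by 0.39 (adjusted p = 0.011). Tfdp1, the partner subunit of E2F factors, fell by 0.25, the mismatch repair gene Msh6 by 0.25 and Rif1, a regulator of origin timing, by 0.33 (adjusted p = 0.011, 0.035 and 0.035). The other tested probe sets of Rif1 gave −0.24 and −0.28 without passing (limma adjusted p = 0.45 and 0.15). Pold4, the small subunit of polymerase delta, rose by 0.61 at low signals of 143, 158 and 112 with corticosterone and 72.4, 74.7 and 91.6 with vehicle (adjusted p = 0.048). Of these 9 genes, Rpa3 and Tfdp1 also passed without couple 1, and Rpa3 alone passed without couple 2. Without the couple as a term 0 of the 54 passed in limma, 10 were lower and 1 was higher at an unadjusted p under 0.05.

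Members with and without the E2F letters in the windows shown above are set side by side. The 13 with a match had a median log2 fold change of −0.16, from −0.29 to −0.01, and the 14 measured members whose window held none had a median of −0.11, from −0.26 to 0.24. The ranges overlapped over most of their length, and the difference was not tested.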

How the data were processed

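Gene expression in 6 RNA samples was measured on Affymetrix rat arrays, 3 with corticosterone and 3 with vehicle, grouped and numbered by couple from the labels. The deposited values are intensities, 1 signal per probe set, made by the authors with MAS5 per the submitters' processing notes; no source used here gives its settings or version. The mean signal after trimming 2% at each end was 500.2 on every array, so the arrays had been scaled to 1 level before deposit, and a shift common to most genes cannot be seen. Arrays give no read depth, and their number limits the precision.

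From these values log2(signal + 28.6) was computed, with the 25th percentile of all values as pseudocount, which understates changes of dim probe sets. The dimmest 40% by mean log2 signal (below a signal of about 63.6) and 57 control probe sets were left out, and 18625 were fitted with limma 3.58.1 in R 4.3.3 (intensity trend, treatment and couple, two-sided, Benjamini-Hochberg). Genes were named from the platform annotation: 20826 probe sets had 1 symbol, 436 several and 9780 none, and 20758 matched an Entrez entry of the RefSeq table. The probe set with the highest mean stands for its gene. The code was tested on simulated data.

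The study's design forms couples, so the couple was a term. Deviations from the group means correlated between samples of the same number by 0.57, 0.52 and 0.35, and between other pairs by −0.48 to 0.003.

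The members, gene lists and tests were chosen with earlier results of these data known. Values on every array are given for members past an adjusted p of 0.05, the 14 with the smallest unadjusted p, the brightest of each role and those higher in all 3 couples. The other replication genes named are those that passed, and Chaf1a, Pola2, Prim2, Rfc1 and Rpa1, which share a complex with genes described. Further genes that share a complex with members, such as Gins3, Pold2 and Pole, were measured and are not described singly. Alternatives were other scalings (centring on the median of all or of the tested probe sets, quantile), pseudocounts, filters and no intensity trend. Further ones were no couple term, each couple left out, and the mean of a gene's probe sets. No test was made of gene lists.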

Additional observations from a re-analysis of the deposited data

How the results depend on the processing

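The members' median log2 fold change stayed below 0 under each alternative run, from −0.25 to −0.06, while counts of calls moved. It was −0.14 without the replicate block, without the intensity trend and with other filters. These settings leave each member's estimate unchanged, so they do not test the sign. The median of all genes did move with the filter, to 0.028 with no filter and −0.024 with the stricter one, against −0.002. Over all probe sets limma called 1202 lower and 1751 higher. Without the replicate block these were 55 and 362, without the intensity trend 302 and 960, with median centring 2846 were lower, with no filter 624 were lower, and with 1 couple left out 392 to 1103 were lower and 800 to 1704 higher.

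Of the members 2 were lower, against 15 with centring on the median of all probe sets and 3 with that of the tested ones. The count was 1 with the mean of probe sets (Lig1, with Cdc45 and Rfc4 both lost) and 0 to 4 with 1 couple left out. No member passed in limma with quantile normalization (0, with 11 lower at an unadjusted p under 0.05), with no filter (0, with 12), without the intensity trend (0, with 1) or without the replicate block (0, with 2). The 13 members lower at an unadjusted p under 0.05 became 20 with median centring and 0 to 15 with 1 couple left out. The 1 higher became 0 without the replicate block and with median centring, 2 with quantile normalization, and 0 to 3 with 1 couple left out. Chaf1b had 0.13 with median centring. Of the other replication genes 8 were lower, against 21 with median centring, 5 with no filter, 1 without the intensity trend, 0 without the replicate block (10 at an unadjusted p under 0.05) and 1 to 9 with 1 couple left out. The 1 higher, Pold4, was 0 under every alternative but the pseudocounts and leaving out couple 3, with 0 to 1 over the couples left out.

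Signs turned for members near 0. With quantile normalization Mcm3 had 0.038, Rfc2 0.015 and Rrm1 0.0018, and with the mean of probe sets Tk1 had −0.14. With 1 couple left out the log2 fold change ran from −0.080 to 0.11 for Mcm3, −0.14 to 0.078 for Mcm5, −0.093 to 0.075 for Mcm10, −0.17 to 0.018 for Cdt1, −0.16 to 0.16 for Rfc2, −0.081 to 0.053 for Rrm1, −0.015 to 0.30 for Pold1, −0.17 to 0.0073 for Ccne2 and −0.26 to 0.026 for Fen1. The causes were not tested. For single genes 437 values under alternatives kept direction and side of the threshold, 61 lost a call, 20 gained one and 13 turned sign.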
